A study of Mus musculus with 10 samples.

Results

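The nuclear genome encodes most of the protein subunits of the mitochondrial respiratory chain, and 97 such genes were followed here through RNA sequencing of sorted supporting cells of the murine utricle, a balance organ of the inner ear. Members were all protein-coding nuclear genes with a symbol beginning Ndufa, Ndufb, Ndufc, Ndufs, Ndufv, Sdh, Uqcr, Cox4, Cox5, Cox6, Cox7, Cox8 or Atp5, which gave 97 of the 48709 genes in the tables. Of these, 12 with Ndufaf or Sdhaf symbols were counted as assembly factors and the other 85 as subunits. Complex I had 38 subunit genes, complex II 4, complex III 8, complex IV 18 and complex V 17. The rule reads gene symbols alone, so each member is counted in the complex of its name and its role was not checked. Ndufa4 and Ndufa4l2 are thus counted in complex I.

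The cells were supporting cells that expressed an EGFP reporter for Lfng (Lfng-GFP+ in the labels) and were purified by flow sorting from cultured utricles of mice at postnatal day 21. DMSO_d5 was 3 libraries from utricles kept for 5 days in the solvent, 0.1% DMSO. TRULI_d5 was 3 libraries after 5 days in 10 μM TRULI, an inhibitor of the Lats kinases that act in Hippo signaling. DMSO_d10 and TRULI_d10, with 2 libraries each, were taken after 5 further days without the agent. The reporter, the age and the organ culture were common to all 10 libraries, and 0.1% DMSO is given for all of them, those with TRULI included. The methods call the libraries biological replicates, but no label ties a library to an animal or a culture, so p-values measure the spread between these libraries. In sorted bulk RNA, fewer cells of a type and less RNA per cell cannot be told apart.

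The tables of 4 libraries were deposited under names that give another condition than the sample label. The libraries labelled TRULI_d5 replicates 1 and 2 were deposited as DMSO_d10 replicates 1 and 2. The libraries labelled DMSO_d10 replicates 1 and 2 were deposited as TRULI_d5 replicates 2 and 3, and the library labelled TRULI_d5 replicate 3 was deposited as TRULI_d5 replicate 1. DMSO_d5 and TRULI_d10 hold the same libraries under both. Every comparison below is given for the labelled groups first and for the deposited names beside them, and an unqualified group name is the label. Expression of Ccn2, a target of Yap, is one check of the labels. In the library labelled TRULI_d5 replicate 3 it was 711 CPM (counts scaled to library size). It was 488 and 481 CPM in DMSO_d10 replicates 1 and 2, and between 2.03 and 15.6 CPM in the other libraries. Those with the high values were deposited as TRULI_d5. In the same order, 4 Yap targets, Ccn2 included, summed to 1355, 1134 and 1236 CPM, against at most 450 CPM elsewhere. A set of 6 proliferation genes summed to 140, 477 and 304 CPM, against at most 90.1 CPM elsewhere. Of these genes, Amotl2 and Pcna overlapped. The paper reports that TRULI raised Yap targets and cell-cycle genes, but not after withdrawal. These sums thus followed the deposited names. Which grouping is right was not tested.

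The tables summed to between 2463872 and 6255149 counts, so that 3 counts equalled 0.47 to 1.2 CPM. These 4 libraries stood apart, labelled TRULI_d5 replicates 1 and 2 and TRULI_d10 replicates 1 and 2: mitochondrial RNA took 2.09% to 3.52% of their counts, against 14.2% to 28.2% in the other 6. Most of this gap was the ribosomal RNA mt-Rnr2, at 1.45% to 2.53% of counts in the 4 and 13% to 26.4% in the 6. The 13 mitochondrially encoded subunits took 0.624% to 0.999% in the 4 and 1.13% to 1.62% in the 6. The summed level of 7 supporting-cell markers was 1737 to 2213 CPM in those 4 and 3336 to 4716 CPM in the other 6. Sparcl1 made up most of that difference, at 159 to 411 CPM in the 4 and 1472 to 2822 CPM in the 6. Sox2 was also lower in the 4, whereas Sox9, Jag1, Hes1 and Otol1 overlapped. Sox9 measured 701 to 889 CPM in the 4 and 482 to 812 CPM in the 6. Lfng, the source of the reporter, ranged from 21.2 to 100 CPM in the 4 and from 290 to 563 CPM in the 6. Muscle markers summed to at most 89.4 CPM, nearly all of it Myod1, which reached 14.4 to 89.1 CPM in the 4 libraries and at most 0.4 CPM in the others. Hair-cell markers summed to 292 to 1120 CPM, Schwann-cell markers to 29.6 to 125 CPM, fibroblast markers to 18 to 95.9 CPM, macrophage markers to at most 18.1 CPM, melanocyte markers to at most 14.1 CPM and endothelial markers to at most 2.95 CPM. The part of these differences in the results below was not tested.

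The respiratory chain moves electrons from NADH and succinate to oxygen and couples the transfer to proton pumping. Complex I oxidizes NADH, complex II oxidizes succinate, complex III passes electrons from ubiquinol to cytochrome c, complex IV reduces oxygen, and complex V, the ATP synthase, lets protons return to make ATP. A few core subunits of complexes I, III, IV and V are encoded in mitochondrial DNA, and the rest are made in the cytoplasm from the genes described here. In many tissues their promoters hold sites for NRF1, for GABPA of the ETS family and for YY1.

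Promoter sequence is shown first for members that lay on opposite sides of the comparisons below. RefSeq windows on GRCm38.p6, from 250 bases before to 50 after the start, were found for 78 of the 97 members and gave 83 windows. The motifs searched on both strands were the exact NRF1 palindrome of 10 bases, an NRF1-type motif with 1 base left free, which includes the first, the ETS motif CCGGAAG and the YY1 motif that holds AAGATGG. The NRF1-type motif was in 26.5% of the member windows and 4.6% of all 32851 windows. CCGGAAG was in 25.3% of member windows against 8.86% of all, and the YY1 motif in 7.23% against 0.852%. The exact NRF1 palindrome was in 8.43% of member windows and 0.971% of all. The 100 bases before the RefSeq start follow, read on the minus strand, where all 4 genes lie, with capitals for a match on either strand. Atp5c1, the gamma subunit of complex V (chr2:10080433-10080532, 1 of 2 starts), held an NRF1-type match 17 bases before the start. This start was picked for its match, and the other had none in the 250 bases before it. Uqcrh, the hinge protein of complex III (chr4:116075071-116075170), held an ETS match at 10 bases. Ndufaf1, an assembly factor of complex I (chr2:119662835-119662934), held an ETS match at 18 bases. Ndufb11, an accessory subunit of complex I (chrX:20617620-20617719), had no match in the stretch shown.
Atp5c1: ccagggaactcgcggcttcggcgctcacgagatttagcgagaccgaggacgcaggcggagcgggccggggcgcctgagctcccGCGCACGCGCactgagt
Uqcrh: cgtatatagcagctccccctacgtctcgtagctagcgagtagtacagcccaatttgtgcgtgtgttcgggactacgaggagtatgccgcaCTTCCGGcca
Ndufaf1: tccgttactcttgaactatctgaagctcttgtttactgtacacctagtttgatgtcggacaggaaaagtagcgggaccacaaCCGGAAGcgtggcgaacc
Ndufb11: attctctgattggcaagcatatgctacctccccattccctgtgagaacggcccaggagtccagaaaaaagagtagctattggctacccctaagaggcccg

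Most of the 97 members were measured well. In every library, 67 had at least 10 counts. Cox6a2, Cox7b2 and Cox8c, isoform genes of complex IV, were at 0 in all 10 libraries, and Cox8b had 1 count in all. Members are short: their median effective length was 496 bases against 1797 for protein-coding genes, and 75 of them lay under 1000 bases. The tables also list 11 pseudogenes with symbols of the rule, which were left out, and members that resemble them or each other, such as Atp5g1, Atp5g2 and Atp5g3, could share reads.

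All members together took 0.355% to 0.647% of the nuclear-encoded counts. Their summed level was 4169, 5213 and 3390 CPM in DMSO_d5, 3381, 5137 and 3599 CPM in TRULI_d5, 3584 and 3593 CPM in DMSO_d10, and 3331 and 4157 CPM in TRULI_d10, so the groups overlapped. The library labelled DMSO_d5 replicate 2 had the highest level of 41 of the 88 members that passed the count filter over 10 libraries, and of 8.5% of all 12841 genes that passed; it also held the highest share of mitochondrial RNA, 28.2%. DMSO_d5 replicate 3 was highest for 1 member.

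Complexes differed in their sums. Complex V summed to 1471, 2031 and 1287 CPM in DMSO_d5, 905, 1198 and 1287 CPM in TRULI_d5, 1404 and 1222 CPM in DMSO_d10, and 1017 and 1003 CPM in TRULI_d10. The 4 libraries low in mitochondrial RNA were the lowest for complex V. Complex II gave 334, 353 and 262 CPM in DMSO_d5, 184, 236 and 286 CPM in TRULI_d5, 287 and 249 CPM in DMSO_d10, and 177 and 253 CPM in TRULI_d10. For complex II those 4 overlapped the others only at 253 and 249 CPM. Complex III subunits summed to 443, 592 and 395 CPM in DMSO_d5, 304, 481 and 372 CPM in TRULI_d5, 352 and 347 CPM in DMSO_d10, and 317 and 431 CPM in TRULI_d10. Complex III, complex I and complex IV sums were not ordered by those 4 libraries. The highest for complex I, 1866 CPM, was in the library labelled TRULI_d5 replicate 2, with 821 to 1247 CPM in DMSO_d5. Complex IV reached its highest sum, 977 CPM, in TRULI_d10 replicate 2. Most of that height was 1 gene. Without Cox4i2, complex IV summed to 669, 729 and 435 CPM in DMSO_d5, 269, 530 and 424 CPM in TRULI_d5, 416 and 470 CPM in DMSO_d10, and 333 and 424 CPM in TRULI_d10.

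**Figure D1:**
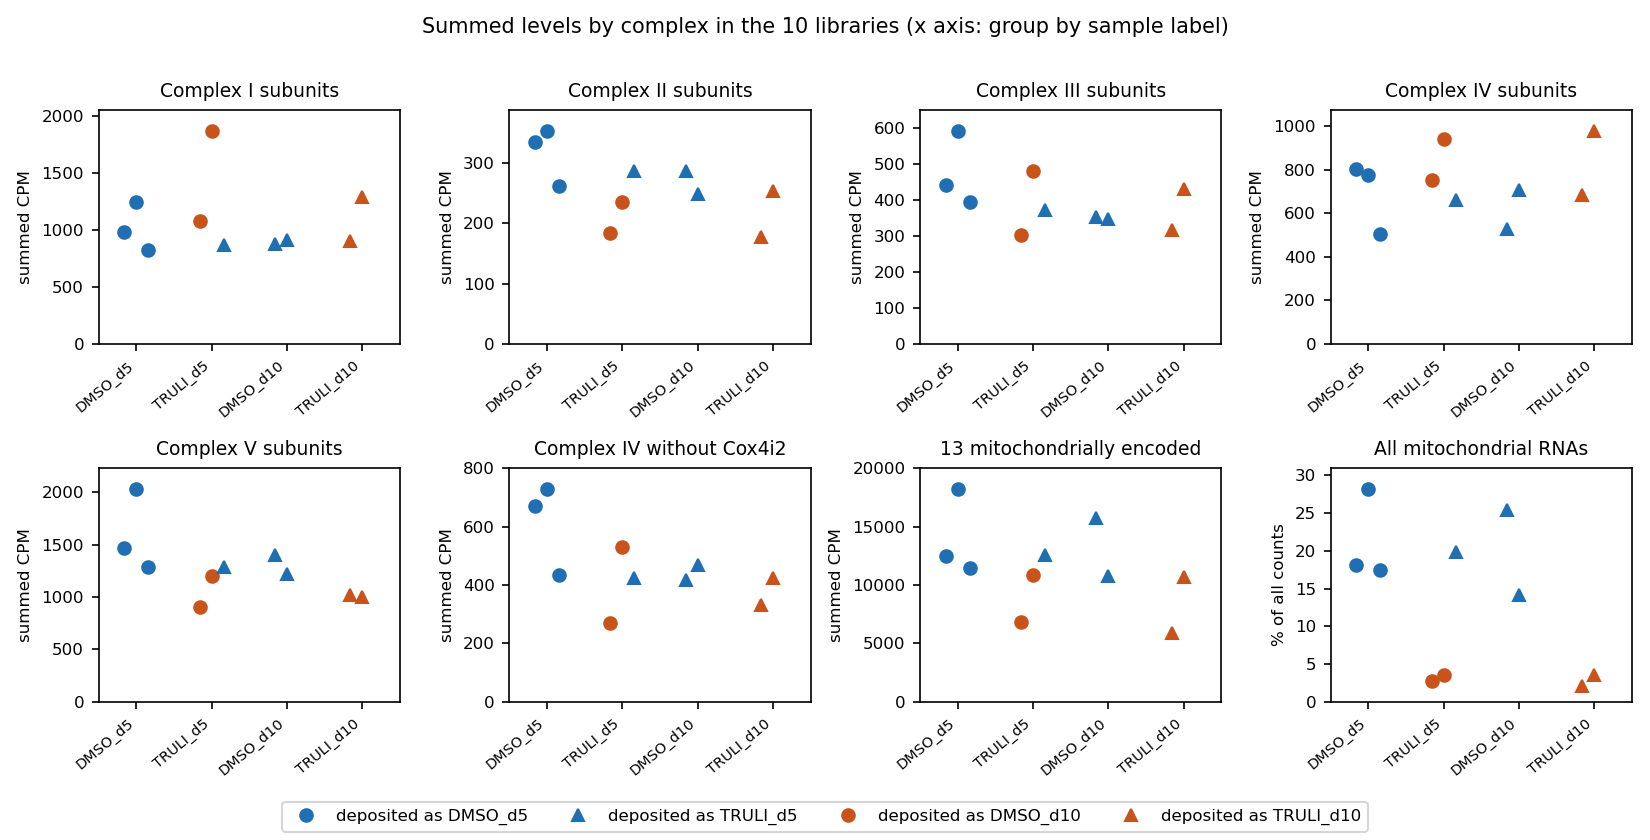
Summed CPM of the subunits of each complex (y axis, from 0), of complex IV without Cox4i2 and of the 13 mitochondrially encoded subunits, and the percent of counts from mitochondrial RNA, in each library; the x axis is the group by label, and colour and shape give the deposited name. Complex V was lowest in the 4 libraries with 2.09% to 3.52% mitochondrial RNA, at 905 to 1198 CPM, while complex I reached 1866 CPM in one of them.

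Levels per length were compared as FPKM, which divides counts by library size and gene length and was computed here. The highest mean level over the 10 libraries was 590 FPKM for Cox4i2, followed by Cox4i1 at 459 FPKM, both forms of the regulatory subunit 4 of complex IV. Uqcrh of complex III followed at 352 FPKM, and then the gamma, beta and alpha subunits of complex V, Atp5c1 at 311, Atp5b at 293 and Atp5a1 at 292 FPKM. In complex I the highest was Ndufb11 at 257 FPKM. Among complex II genes the assembly factor Sdhaf4, which binds Sdha, was highest with 84.5 FPKM, and it ranged from 14.0 CPM in DMSO_d5 replicate 1 to 74.4 CPM in the library labelled TRULI_d5 replicate 2.

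Members of a complex did not vary alike. Within complex V, Atp5a1 spanned 0.55 on the scale of log2(CPM + 1) over the 10 libraries, while Atp5h, a peripheral-stalk subunit, spanned 3.2, from 4.17 CPM in TRULI_d10 replicate 1 to 46.4 CPM in DMSO_d5 replicate 2. Sdha of complex II spanned 0.9, and Sdhaf1, an assembly factor for that complex, 3.42. In complex III the span was 1.12 for the core subunit Uqcrc2 and 3.97 for the small subunit Uqcrq. The widest span of all members was that of Ndufa4l2, at 5.29, and the widest in complex IV that of Cox4i2, at 3.54.

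**Figure D2:**
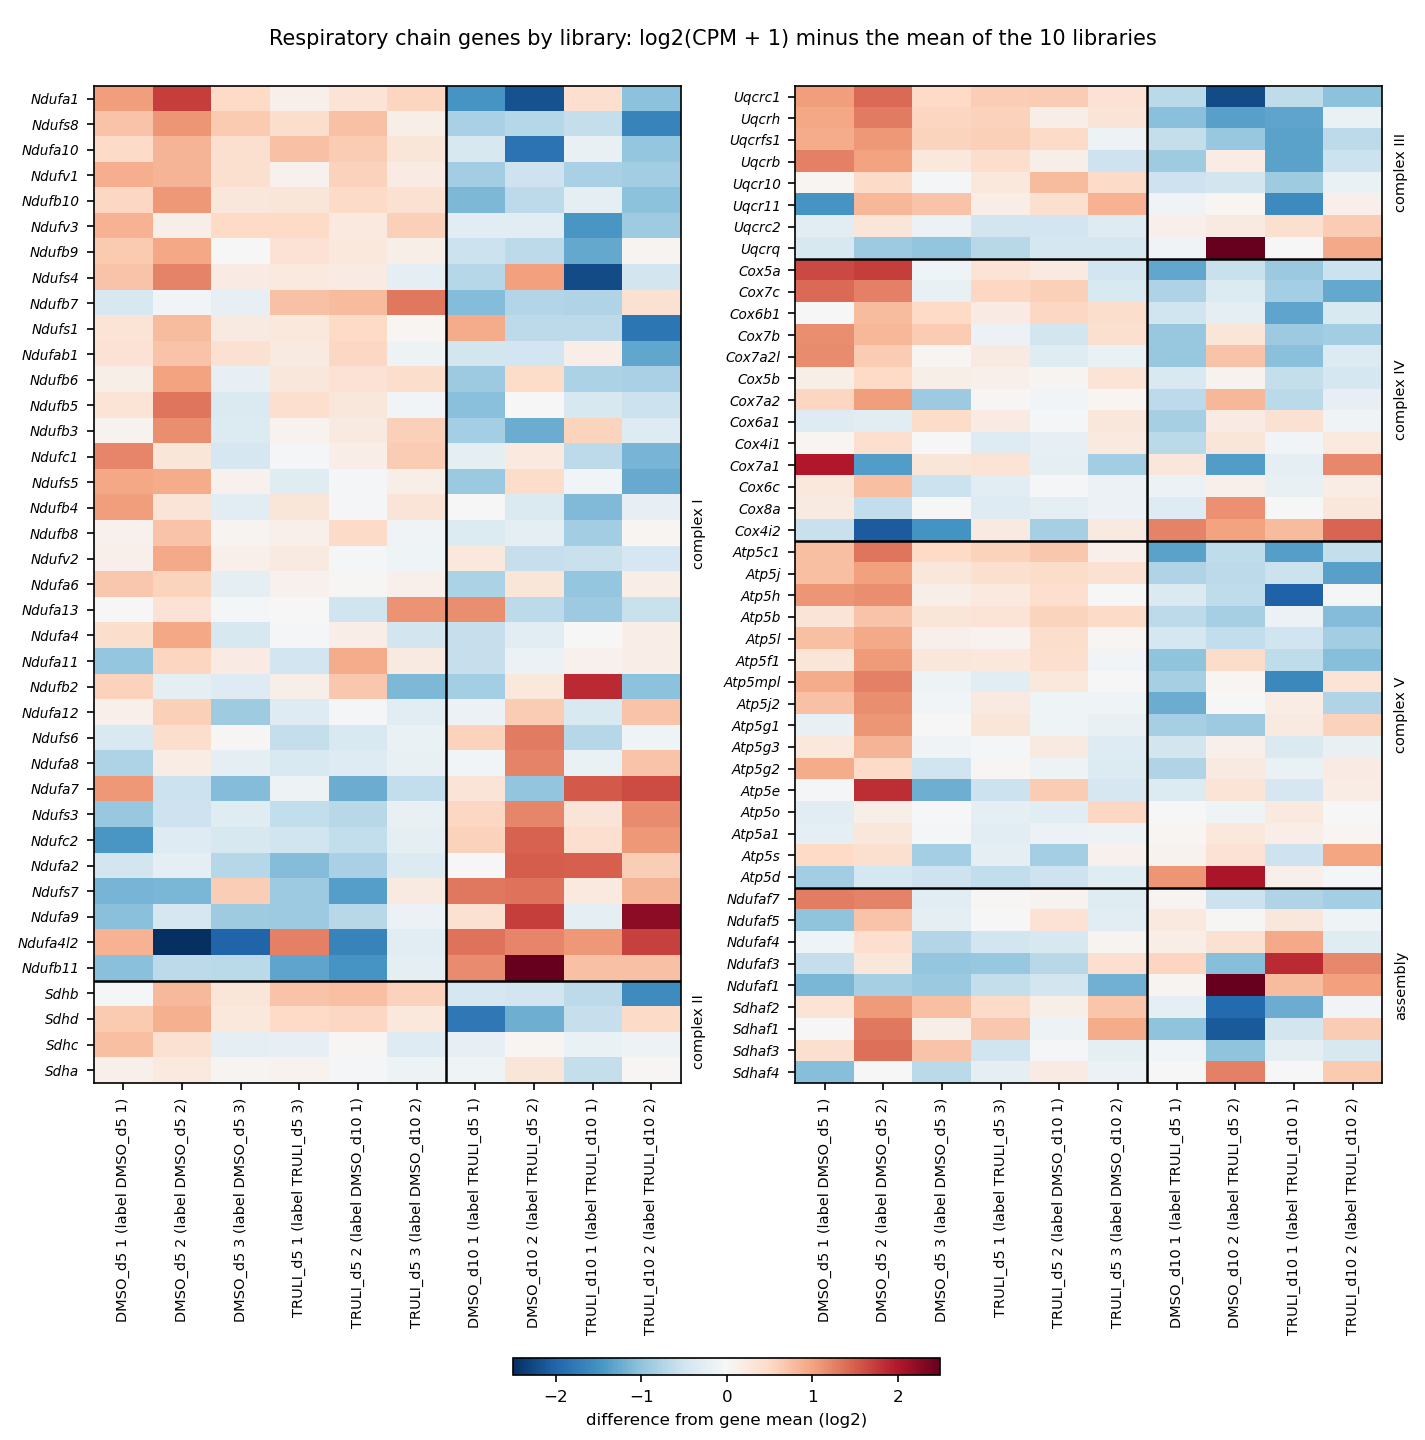
Heat map of 85 of the members that reached 5 CPM in some library: colour is log2(CPM + 1) minus the gene's mean over 10 libraries, rows are genes by complex, and columns are libraries ordered by deposited name with the label in brackets, with a line between the 6 deposited as d5 and the 4 as d10. Atp5c1 and Uqcrc1 lie above their means in 6 columns and below in 4, whereas Cox4i2 lies above its mean in those 4 and in 2 of the 6; the column of DMSO_d5 replicate 2 is the highest for 41 of 88 tested members.

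TRULI_d10 against DMSO_d5 was the comparison in which label and deposited name give the same libraries. It compares TRULI with solvent and day 10 with day 5 at once, and these cannot be told apart. Of the 86 members tested, 14 fell and 7 rose (edgeR quasi-likelihood test, Benjamini-Hochberg adjusted p under 0.05), where 20.3% of all 11760 genes were called, 8.8% lower and 11.5% higher. The groups did not overlap for 40 members on the lower side and 14 on the higher, beside 26.6% and 26.1% of all genes. The median log2 difference was -0.81 over the members and 0.02 over all genes tested. Leaving out a library moved the count of members and that of all genes together: without DMSO_d5 replicates 1, 2 and 3, 6, 1 and 7 members and 671, 355 and 802 genes were called. A fit without a TRULI_d10 library leaves a lone library in that group, so its counts are not read here. DESeq2 called 30 members, 22 of them lower, where it called 23.4% of all genes. At an unadjusted p under 0.05, 31 were lower and 10 higher, beside 36.7% of all genes. In one fit of all 10 labelled libraries 0 members were called, and in one fit by deposited name 26. The share of all genes called is not given for these fits. Whether equal replicate numbers pair libraries of day 10 with those of day 5 was not checked. With the replicate number as a block, a fit that leaves out DMSO_d5 replicate 3, 9 members were lower and 5 higher, beside 11% of all genes, and 13 of these 14 were also called without it. The other was Ndufs4, an accessory subunit of complex I (adjusted p = 0.0411).

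In complex III, 3 of 8 subunits fell and 0 rose, 37.5% called beside 20.3% of all genes, with a median log2 difference of -1.26. Uqcrfs1, the Rieske iron-sulfur protein, measured 83.9, 94.4 and 65.2 CPM in DMSO_d5, 28.5, 22.3 and 66.4 CPM in TRULI_d5, 61.4 and 39.9 CPM in DMSO_d10, and 16.7 and 27.5 CPM in TRULI_d10. Uqcrc1, a core protein of the complex, measured 67.9, 87.8 and 45.9 CPM in DMSO_d5, 20, 6.11 and 50.4 CPM in TRULI_d5, 50.9 and 42.1 CPM in DMSO_d10, and 20.5 and 15.3 CPM in TRULI_d10. For both genes TRULI_d10 lay below all DMSO_d5 libraries, and the library labelled TRULI_d5 replicate 3 lay with DMSO_d5 while its 2 group mates lay with TRULI_d10. The log2 difference of TRULI_d10 from DMSO_d5 was -1.88 (SE 0.37, adjusted p = 0.0132) for Uqcrfs1 and -1.91 (SE 0.4, adjusted p = 0.0156) for Uqcrc1. Uqcrh measured 111, 140 and 82.1 CPM in DMSO_d5, 27.1, 21.6 and 85.1 CPM in TRULI_d5, 64.1 and 71.5 CPM in DMSO_d10, and 22.2 and 50.6 CPM in TRULI_d10, a log2 difference of -1.61 from DMSO_d5 to TRULI_d10. The other core protein was not called: Uqcrc2 measured 138, 209 and 152 CPM in DMSO_d5 and 224 and 262 CPM in TRULI_d10.

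Complex V had 3 of 16 tested subunits lower and 0 higher, 18.8% called beside 20.3% of all genes. The median log2 difference was -0.94. Atp5c1, the shaft that turns inside the enzyme's head, measured 331, 498 and 277 CPM in DMSO_d5, 76.9, 126 and 294 CPM in TRULI_d5, 315 and 216 CPM in DMSO_d10, and 75.8 and 131 CPM in TRULI_d10. Its log2 difference from DMSO_d5 to TRULI_d10 was -1.84 (SE 0.37, adjusted p = 0.0148), with no overlap. The peripheral-stalk genes Atp5j and Atp5f1 were the others called, at log2 differences of -1.69 and -1.45, and the block ended the call of Atp5j (adjusted p = 0.0607). Atp5a1, the alpha subunit, measured 352, 502 and 401 CPM in DMSO_d5, 430, 495 and 342 CPM in TRULI_d5, 375 and 376 CPM in DMSO_d10, and 466 and 426 CPM in TRULI_d10, with a log2 difference of 0.09 (adjusted p = 0.833). For Atp5a1 the groups TRULI_d10 and DMSO_d5 overlapped, and TRULI_d10 lay above both DMSO_d10 libraries. Atp5b, the catalytic beta subunit, measured 221, 288 and 218 CPM in DMSO_d5, 111, 98.4 and 223 CPM in TRULI_d5, 260 and 244 CPM in DMSO_d10, and 158 and 82.2 CPM in TRULI_d10. Both TRULI_d10 libraries lay below DMSO_d5 for Atp5b, but the difference of -1.01 on the log2 scale did not pass the test (adjusted p = 0.0675).

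Complex I had 5 of 34 tested subunits lower and 4 higher, and a median log2 difference of -0.84. This was 26.5% called beside 20.3% of all genes, which also moved in both directions, 8.8% lower and 11.5% higher. Ndufv1, the core subunit that binds NADH, measured 52.4, 50.3 and 36.4 CPM in DMSO_d5, 14.6, 18.7 and 29.4 CPM in TRULI_d5, 41.0 and 31.8 CPM in DMSO_d10, and 15.1 and 14.6 CPM in TRULI_d10. It fell by 1.64 on the log2 scale (SE 0.37, adjusted p = 0.0191). Ndufs1, a core iron-sulfur subunit of the NADH-oxidizing arm, measured 127, 175 and 118 CPM in DMSO_d5, 192, 63.6 and 121 CPM in TRULI_d5, 142 and 104 CPM in DMSO_d10, and 63.3 and 28.1 CPM in TRULI_d10. It fell by 1.62 (SE 0.41, adjusted p = 0.0273), although the library labelled TRULI_d5 replicate 1 was the highest of the 10. Ndufs8 and Ndufv3, a core and an accessory subunit, also fell, by 1.95 and 1.75 on the log2 scale. The block ended the calls of Ndufv1, Ndufs8 and Ndufv3 (adjusted p = 0.0513, 0.0519 and 0.0841).

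The complex I subunits that rose in TRULI_d10 over DMSO_d5 were 3 accessory subunits and 1 core subunit. Ndufb11 measured 50.4, 65.8 and 64.7 CPM in DMSO_d5, 238, 714 and 41.5 CPM in TRULI_d5, 37.0 and 88.0 CPM in DMSO_d10, and 175 and 173 CPM in TRULI_d10, a log2 difference of 1.53 (SE 0.27, adjusted p = 0.0105). The library labelled TRULI_d5 replicate 2 was by far the highest. Ndufa2 measured 20.4, 24.3 and 16.9 CPM in DMSO_d5, 28.6, 83.0 and 12.9 CPM in TRULI_d5, 15.7 and 22.4 CPM in DMSO_d10, and 82.2 and 44.3 CPM in TRULI_d10, a difference of 1.62 (SE 0.38, adjusted p = 0.0221) that was not called with the block (adjusted p = 0.0858). Ndufa9, which sits near the quinone site, measured 38.4, 59.8 and 43.4 CPM in DMSO_d5, 105, 269 and 42.8 CPM in TRULI_d5, 49.4 and 72.8 CPM in DMSO_d10, and 68.1 and 384 CPM in TRULI_d10. Its difference of 2.25 (SE 0.59, adjusted p = 0.031) rested on TRULI_d10 replicate 2 and was 0.51 without that library. Ndufs3, a core subunit of the matrix arm, measured 26.0, 35.2 and 40.9 CPM in DMSO_d5, 73.4, 119 and 32.8 CPM in TRULI_d5, 30.8 and 44.8 CPM in DMSO_d10, and 63.8 and 117 CPM in TRULI_d10, a difference of 1.4 (SE 0.36, adjusted p = 0.03).

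Of the 11 assembly factors tested, 2 rose and 0 were called lower, 18.2% called beside 20.3% of all genes. At an unadjusted p under 0.05, 4 were lower, beside 36.7% of all genes in either direction. The median log2 difference was 0.13. Ndufaf1, which takes part in building the membrane arm of complex I, measured 12, 15.1 and 14.1 CPM in DMSO_d5, 29.1, 270.0 and 17.9 CPM in TRULI_d5, 19.9 and 11.4 CPM in DMSO_d10, and 48.8 and 57.6 CPM in TRULI_d10. The rise of 1.94 on the log2 scale (SE 0.34, adjusted p = 0.0104) had no overlap between the groups. Ndufaf3, another complex I assembly factor, measured 8.39, 16.1 and 6.2 CPM in DMSO_d5, 19.4, 5.75 and 6.3 CPM in TRULI_d5, 7.7 and 17.9 CPM in DMSO_d10, and 50.6 and 31.5 CPM in TRULI_d10, a rise of 2.01 (SE 0.49, adjusted p = 0.0252). The TRULI_d10 libraries held the highest Ndufaf3 levels, but with the block the log2 difference was 1.79 and the call was lost (adjusted p = 0.0846). Among factors for complex II, Sdhaf1, which helps load iron-sulfur clusters into Sdhb, ranged from 0.718 CPM in the library labelled TRULI_d5 replicate 2 to 17.4 CPM in DMSO_d5 replicate 2 and was not called.

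In complex II, 0 of 4 subunits were called by edgeR, beside 20.3% of all genes. At an unadjusted p under 0.05, 1 was lower, beside 36.7% of all genes in either direction. The median log2 difference was -0.55. Sdha, the flavoprotein, measured 115, 125 and 111 CPM in DMSO_d5, 97.4, 131 and 113 CPM in TRULI_d5, 103 and 96.8 CPM in DMSO_d10, and 69.7 and 108 CPM in TRULI_d10. Both TRULI_d10 libraries lay below all 3 of DMSO_d5 for Sdha, but the log2 difference of -0.40 did not pass the test (adjusted p = 0.363). Sdhb, the iron-sulfur subunit, measured 21.2, 39.5 and 27.5 CPM in DMSO_d5, 16.3, 15.8 and 37.0 CPM in TRULI_d5, 38 and 33.4 CPM in DMSO_d10, and 13.6 and 6.71 CPM in TRULI_d10. The groups DMSO_d5 and TRULI_d10 did not overlap for Sdhb, and the log2 difference of -1.53 missed the threshold (adjusted p = 0.0579).

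In complex IV, 3 of 13 tested subunits fell and 1 rose, 30.8% called beside 20.3% of all genes. The median log2 difference was -0.81. Cox5a, a nuclear subunit of the enzyme's matrix side, measured 146, 154 and 42.6 CPM in DMSO_d5, 18.2, 30.9 and 58.3 CPM in TRULI_d5, 53.7 and 32.7 CPM in DMSO_d10, and 23.6 and 31.5 CPM in TRULI_d10. It fell by 2.05 on the log2 scale (SE 0.54, adjusted p = 0.032), and DMSO_d5 replicate 3 lay far below its 2 group mates. Cox7c, a small subunit, measured 29.2, 26.0 and 8.93 CPM in DMSO_d5, 5.63, 7.9 and 15.2 CPM in TRULI_d5, 15.9 and 7.62 CPM in DMSO_d10, and 5.21 and 3.66 CPM in TRULI_d10, and it fell by 2.25 (SE 0.64, adjusted p = 0.0386). Cox7b, another small subunit, measured 28.8, 22.7 and 19.6 CPM in DMSO_d5, 5.95, 15.4 and 11 CPM in TRULI_d5, 8.69 and 16.6 CPM in DMSO_d10, and 6.08 and 6.31 CPM in TRULI_d10, a log2 difference of -1.93 whose call was lost with the block (adjusted p = 0.0683).

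Cox4i2 was the complex IV gene that rose. It encodes a form of subunit 4 known from lung and from cells at low oxygen, in place of the common form encoded by Cox4i1, and it lies at 152754173 to 152765037 on chromosome 2 (GRCm38). Cox4i2 measured 136, 46.7 and 71.4 CPM in DMSO_d5, 481, 409 and 237 CPM in TRULI_d5, 113 and 237 CPM in DMSO_d10, and 352 and 553 CPM in TRULI_d10. Both TRULI_d10 libraries were above every DMSO_d5 library, by 2.42 on the log2 scale (SE 0.43, adjusted p = 0.0107). Cox4i1 measured 195, 253 and 188 CPM in DMSO_d5, 118, 234 and 152 CPM in TRULI_d5, 163 and 225 CPM in DMSO_d10, and 181 and 225 CPM in TRULI_d10, and it differed by -0.07 between the same groups (adjusted p = 0.883). As a share of the FPKM of both genes, Cox4i2 held 40.6%, 15.7% and 27.4% in DMSO_d5, 79.6%, 63.8% and 61.1% in TRULI_d5, 40.4% and 51.8% in DMSO_d10, and 66.6% and 71.6% in TRULI_d10. The share was above that of every DMSO_d5 library in all TRULI_d5 and TRULI_d10 libraries, and the DMSO_d10 libraries reached from the top of the DMSO_d5 range upward. By deposited name the 4 libraries named d10 held 63.8% to 79.6% and the 6 named d5 15.7% to 61.1%.

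**Figure D3:**
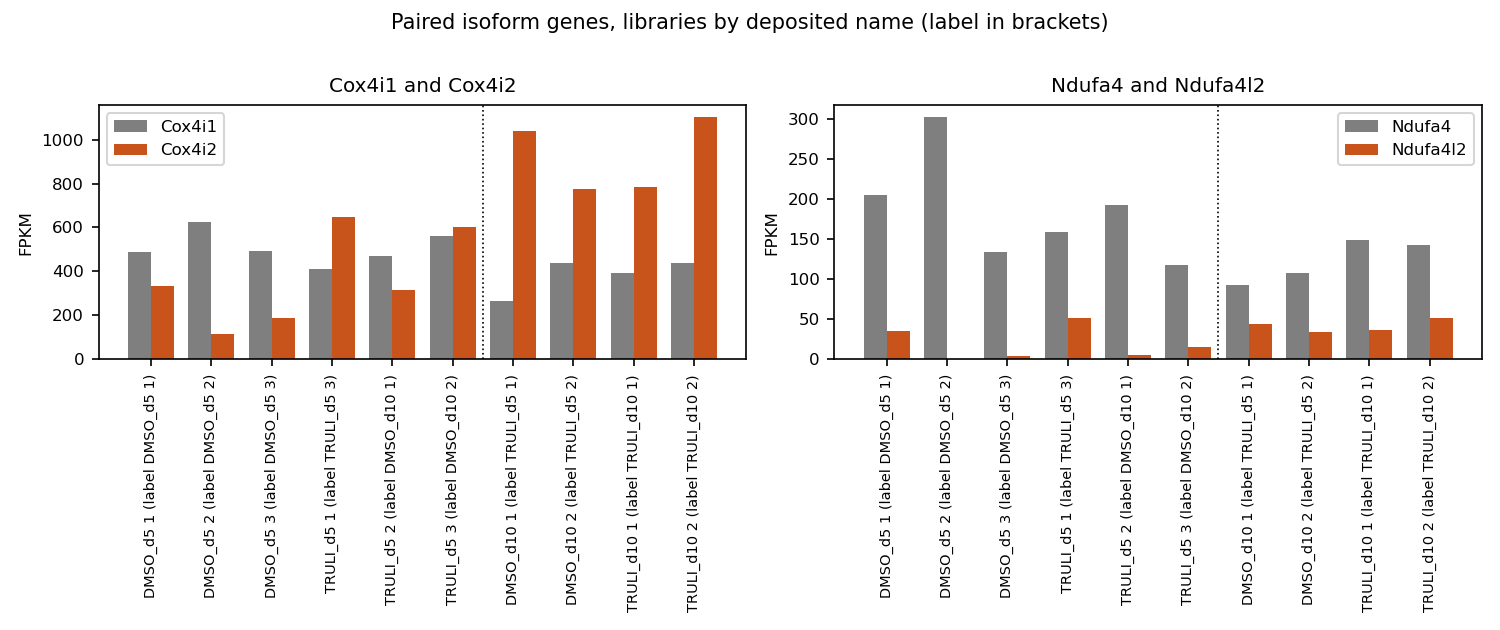
FPKM (y axis, from 0) of Cox4i1 and Cox4i2 (left) and of Ndufa4 and Ndufa4l2 (right) in each library, ordered by deposited name with the label in brackets; the dotted line separates the libraries named d5 from those named d10. Cox4i2 exceeded Cox4i1 in all 4 libraries right of the line, with 63.8% to 79.6% of their joint level, and in 2 of the 6 left of it, and Ndufa4l2 stayed below Ndufa4 in every library.

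Ndufa4 and Ndufa4l2 are a second pair in which a paralog is known from low oxygen. Ndufa4 carries a complex I name but its protein is a subunit of complex IV. Ndufa4 measured 44.0, 64.4 and 24.3 CPM in DMSO_d5, 21.4, 26.9 and 31.0 CPM in TRULI_d5, 36.3 and 23.3 CPM in DMSO_d10, and 32.0 and 36.6 CPM in TRULI_d10. Ndufa4l2 measured 20.8, 0 and 1.98 CPM in DMSO_d5, 29.6, 26.6 and 27.6 CPM in TRULI_d5, 2.73 and 8.96 CPM in DMSO_d10, and 24.3 and 38 CPM in TRULI_d10. All 5 libraries labelled with TRULI were above all 5 labelled with DMSO for Ndufa4l2. By deposited name the treatments overlapped, at 2.73 to 38 CPM under TRULI and 0 to 29.6 CPM under DMSO. DMSO_d5 replicate 1 lay far above its 2 group mates, and the difference of TRULI_d10 from DMSO_d5, 2.08 on the log2 scale (SE 1.16), was not called (adjusted p = 0.229). The share of Ndufa4l2 in the FPKM of both was 14.6%, 0% and 2.56% in DMSO_d5, 32.1%, 24.0% and 24.3% in TRULI_d5, 2.65% and 11.7% in DMSO_d10, and 19.9% and 26.6% in TRULI_d10.

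In the other isoform sets of complex IV the same gene led in every library. Cox6a1 measured 4.23 to 11.7 CPM while its muscle form Cox6a2 was at 0, and Cox8a measured 5.59 to 21.2 CPM while Cox8b had 1 count in all and Cox8c was at 0. Cox6b1 measured 6.08 to 29.6 CPM, and the testis form Cox6b2 held at most 10.6% of their joint FPKM. Cox7a1, the muscle form of subunit 7a, reached 9.59 CPM in DMSO_d5 replicate 1 and was at 0 in the libraries labelled DMSO_d5 replicate 2 and TRULI_d5 replicate 2. Cox7a2 measured 9.67 to 40.4 CPM and Cox7a2l, which binds complexes III and IV together, 24.3 to 117 CPM. Of these, Cox6a1, Cox6b1, Cox7a1, Cox7a2, Cox7a2l and Cox8a were tested in TRULI_d10 against DMSO_d5 and not called, with Cox7a2l nearest the threshold at a log2 difference of -1.37 (adjusted p = 0.0506). The ring subunit c of complex V is encoded by Atp5g1, Atp5g2 and Atp5g3, which held 4.25% to 15.0%, 28.9% to 48.4% and 40.7% to 59.5% of their joint FPKM and encode the same mature protein. Atp5g3 led in 7 libraries, and Atp5g2 in DMSO_d5 replicate 1 and both of TRULI_d10.

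After 5 days of treatment, the labelled comparison TRULI_d5 against DMSO_d5 called 0 of 83 members by edgeR, where 0.00903% of 11071 genes were called. At an unadjusted p under 0.05, 8 were higher and 9 lower, beside 13.7% of all genes, and DESeq2 called 3, all higher, beside 2.47%. The median log2 difference was -0.46 over the members and 0.05 over all genes. The groups did not overlap for 3 members on the higher side and 8 on the lower, beside 8.18% and 10.1% of all genes. Cox4i2, Ndufa4l2 and Ndufaf1 were the 3 above every DMSO_d5 library. Without the library labelled TRULI_d5 replicate 3 the count was 20 of 84 members tested, beside 19.3% of 11382 genes. Those 5 libraries are the ones that the deposited names set as DMSO_d10 against DMSO_d5.

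By deposited name, TRULI_d5 against DMSO_d5 also called 0 of 83 members, where 3.28% of 11529 genes were called. The unadjusted p was under 0.05 for 2 higher and 5 lower, beside 16.4% of all genes, and DESeq2 called 2, beside 5.64%. The median log2 difference was -0.24 over the members and 0.03 over all genes. The replicate numbers of the names were taken as pairs from correlations in these same values, and no label states such pairs. With those numbers as a block, edgeR called 2 members, 1 higher and 1 lower, beside 9.89% of all genes. These were Cox4i2, at a log2 difference of 1.29 (SE 0.2, adjusted p = 0.00219), and Cox5a, at -1.07 (SE 0.23, adjusted p = 0.0122).

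After the agent had been removed for 5 days, TRULI_d10 against DMSO_d10 called 0 of 85 members in the labelled groups, where 2.07% of 12242 genes were called. At an unadjusted p under 0.05, 10 were higher and 12 lower, beside 24.5% of all genes, and DESeq2 called 8, beside 11.6%. The groups did not overlap for 17 members on the higher side and 40 on the lower, beside 27.3% and 30.4% of all genes, and the median log2 difference was -0.42 against 0.02 over all genes. Leaving out a TRULI_d10 library leaves a lone library in that group, so those counts are not read here. With the label number as a block 7 members were called, beside 10.4% of all genes. By deposited name 0 of 82 members were called, where 0% of 11568 genes were called, with 3 higher and 3 lower at an unadjusted p under 0.05, beside 4.6% of all genes. DESeq2 called 0 members there and 0.42% of all genes, and the median log2 difference was -0.06 against 0.01.

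The difference between the effect of TRULI after removal and its effect at 5 days was tested as an interaction over all 10 libraries. It was called for 0 of 88 members under either grouping, where 0% of 12841 genes were called. At an unadjusted p under 0.05 there was 1 higher member by label, beside 6.81% of all genes, and 5 higher and 1 lower by deposited name, beside 9.48%. DESeq2 called 0 members under either grouping.

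Solvent at 10 days against solvent at 5 days gave the widest gap between the groupings. In the labelled groups DMSO_d10 against DMSO_d5 called 0 of 86 members, where 2.44% of 12017 genes were called, with 2 higher and 6 lower at an unadjusted p under 0.05, beside 14.9%. DESeq2 called 0 members and 3.73% of all genes. By deposited name, 12 of 84 members were lower and 8 higher, where 19.3% of 11382 genes were called, 8.24% lower and 11% higher, and the median log2 difference was -0.62 against -0.04 over all genes. DESeq2 called 26 members, beside 23.1% of all genes, and the fit with a replicate block 13, beside 9.6%. Without DMSO_d5 replicate 2 the test called 0 members and 4 genes in all, and without DMSO_d5 replicates 1 and 3 it called 6 and 9 members and 478 and 722 genes. Leaving out a library deposited as DMSO_d10 leaves a lone library in that group, so those counts are not read here. This comparison shares its control libraries with TRULI_d10 against DMSO_d5, so their values are set side by side and not counted as separate evidence.

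Ndufa1, an accessory subunit of complex I encoded on the X chromosome, had the largest difference. It measured 8.39, 14.1 and 5.45 CPM in DMSO_d5, 0.626, 0 and 3.94 CPM in TRULI_d5, 4.72 and 5.6 CPM in DMSO_d10, and 5.04 and 1.22 CPM in TRULI_d10, and by deposited name DMSO_d10 differed from DMSO_d5 by -4.46 (SE 1, adjusted p = 0.0201). Those d10 libraries were the ones labelled TRULI_d5 replicates 1 and 2, at or near the 3-count floor, so the fitted size depends on the prior count. Uqcrq, a small subunit of complex III, measured 19.2, 13.2 and 12.4 CPM in DMSO_d5, 23.9, 209 and 15.5 CPM in TRULI_d5, 18.6 and 18.6 CPM in DMSO_d10, and 25.7 and 50.2 CPM in TRULI_d10. Its difference by deposited name, 2.96 (SE 0.73, adjusted p = 0.0254), was mostly the library labelled TRULI_d5 replicate 2, and was not called with the block (adjusted p = 0.134). The same library led Ndufaf1 and Ndufb11, with differences of 3.43 (SE 0.74, adjusted p = 0.0178) and 2.97 (SE 0.44, adjusted p = 0.00725).

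Cox4i2 was 2.38 higher on the log2 scale in the libraries deposited as DMSO_d10 than in DMSO_d5 (SE 0.42, adjusted p = 0.0109), beside the 2.42 of TRULI_d10. Atp5d, the delta subunit of complex V, measured 5.59, 7.89 and 7.44 CPM in DMSO_d5, 25.0, 48.5 and 6.83 CPM in TRULI_d5, 7.45 and 8.74 CPM in DMSO_d10, and 12.2 and 10.8 CPM in TRULI_d10, and differed by 2.37 (SE 0.46, adjusted p = 0.0136). Sdhd, a membrane anchor of complex II, measured 89.1, 105 and 68.4 CPM in DMSO_d5, 15.7, 23.7 and 80.4 CPM in TRULI_d5, 81.2 and 68.1 CPM in DMSO_d10, and 37.7 and 79.1 CPM in TRULI_d10. By deposited name its log2 difference was -2.17 (SE 0.38, adjusted p = 0.0106), and the libraries labelled TRULI_d5 replicates 1 and 2 were the lowest of the 10. Uqcrh differed by -2.19 (SE 0.36, adjusted p = 0.00903) and Atp5b by -1.22 (SE 0.28, adjusted p = 0.0219), the latter not called with the block (adjusted p = 0.0535).

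TRULI_d10 against TRULI_d5 called 0 of 85 members in the labelled groups, where 0% of 12288 genes were called by edgeR, with 2 higher and 1 lower at an unadjusted p under 0.05, beside 3.25%. DESeq2 called 0 members and 0.0355% of all genes. By deposited name 7 of 86 members were higher and 4 lower, where 14% of 12450 genes were called, 8.1% higher and 5.86% lower, and the median log2 difference was -0.4 against -0.01 over all genes. DESeq2 called 20 members, beside 21.2% of all genes, and the fit with a replicate block 4, beside 8.17%. The count was 0 without the library deposited as TRULI_d5 replicate 1 or without replicate 2, with 253 and 12 genes called in all, and 3 without replicate 3. Leaving out a TRULI_d10 library leaves a lone library in that group, so those counts are not read here. Ndufa7, an accessory subunit of complex I, measured 21.2, 6.25 and 3.97 CPM in DMSO_d5, 12.2, 4.31 and 8.67 CPM in TRULI_d5, 3.48 and 5.82 CPM in DMSO_d10, and 29.5 and 31.7 CPM in TRULI_d10, and by deposited name rose by 2.38 (SE 0.49, adjusted p = 0.0223). TRULI_d10 held the 2 highest values of Ndufa7, with DMSO_d5 replicate 1 next. Ndufaf3, Ndufa2 and Ndufaf1 were higher by 1.96 (SE 0.53, adjusted p = 0.0445), 1.92 (SE 0.42, adjusted p = 0.0251) and 1.73 (SE 0.37, adjusted p = 0.0239) on the log2 scale. Sdhb had a log2 difference of -1.8 (SE 0.44, adjusted p = 0.0352), with both TRULI_d10 libraries below all 3 deposited as TRULI_d5. The block ended the calls of Ndufa7, Ndufaf1 and Sdhb here (adjusted p = 0.0501, 0.0809 and 0.074).

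**Figure D4:**
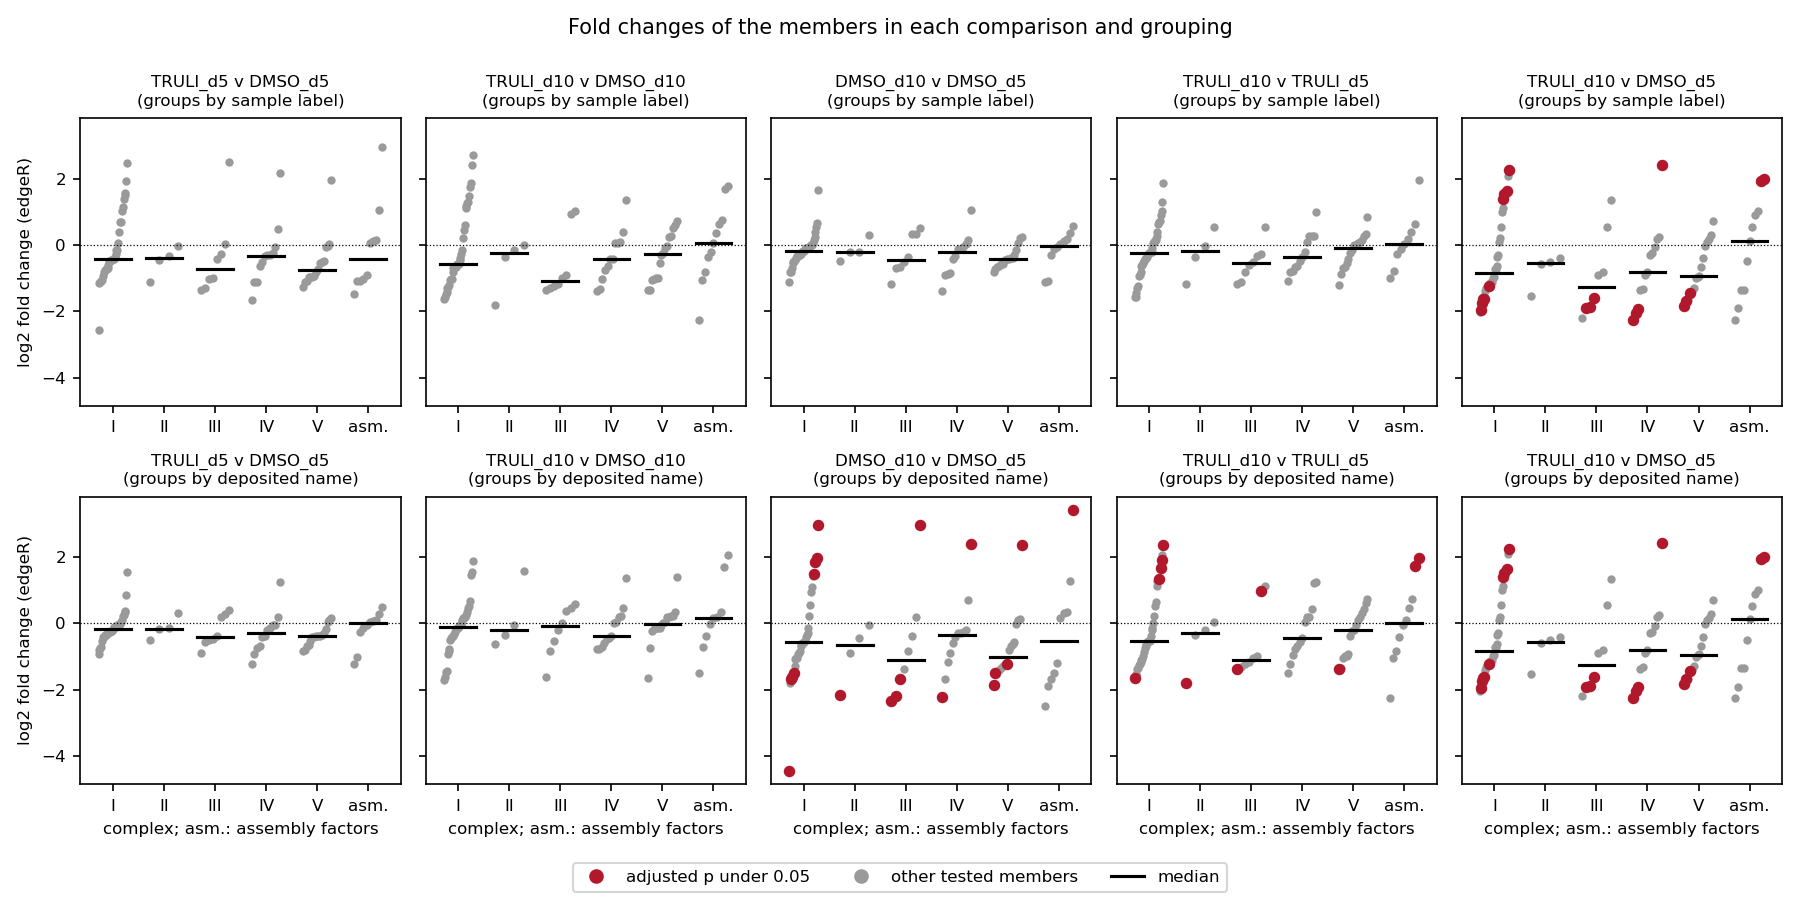
Log2 fold change from edgeR (y axis) of each tested member by complex (x axis, asm. for assembly factors) in 5 comparisons, with groups by label in the upper row and by deposited name in the lower; red points have an adjusted p under 0.05 and bars are medians. The labelled panels hold no red point except TRULI_d10 against DMSO_d5, with 14 lower and 7 higher, while by deposited name the 2 comparisons of day 10 with day 5 within a treatment hold 20 and 11.

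By deposited name, the 4 libraries named d10 can be set against the 6 named d5, whatever the treatment. The 2 sets did not overlap for 8 members on the higher side and 20 on the lower of 88, beside 12.4% and 11.3% of 12841 genes. The 4 were also those with the low mitochondrial RNA, the low Lfng and the Myod1 counts given above, so the day in the name and these properties cannot be told apart. The members higher in all 4 were Ndufaf1, Ndufa2, Ndufb11, Ndufc2, Ndufs3, Uqcrq, Cox4i2 and Atp5d. Those lower included Ndufv1 and Ndufs8 of complex I, Sdhb, the Uqcrc1, Uqcrfs1, Uqcrh and Uqcr10 genes of complex III, Cox5a and Cox6b1 of complex IV, and Atp5b, Atp5c1, Atp5h, Atp5j and Atp5l of complex V. In complex III 4 of 8 subunits were lower and 1 higher, in complex V 5 of 16 and 1, in complex I 6 of 36 and 4, and in complex IV 2 of 13 and 1.

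**Figure D5:**
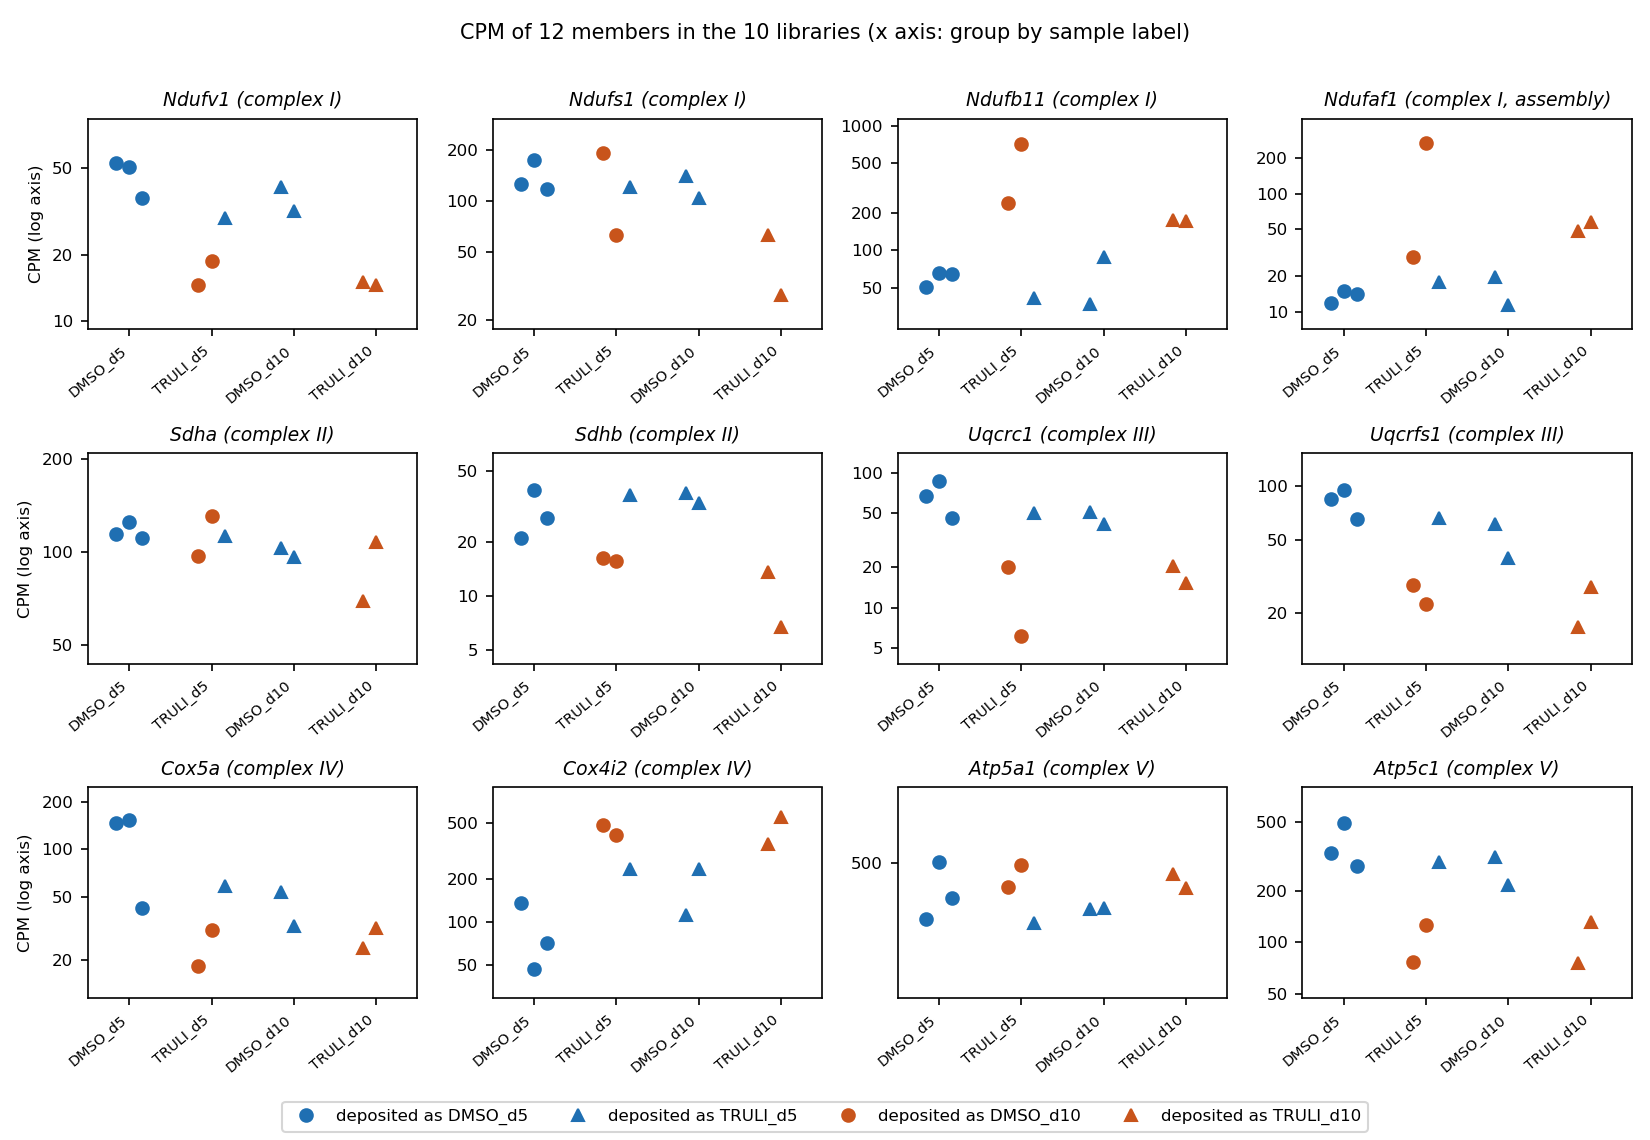
CPM on a log axis of 12 members in each library; the x axis is the group by label, colour gives the day in the deposited name and shape its treatment. For Uqcrc1, Uqcrfs1, Atp5c1 and Ndufv1 the 4 libraries deposited as d10 lie below the 6 deposited as d5, for Cox4i2, Ndufb11 and Ndufaf1 they lie above, and for Sdha and Atp5a1 the sets overlap.

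Other genes of mitochondrial metabolism were followed by list in TRULI_d10 against DMSO_d5, where 20.3% of all genes were called, 8.8% lower and 11.5% higher. Of the 13 subunits encoded in mitochondrial DNA, 5 fell and 1 rose, with a median log2 difference of -0.9. The complex I subunit mt-Nd5 measured 745, 964 and 606 CPM in DMSO_d5, 102, 222 and 794 CPM in TRULI_d5, 849 and 441 CPM in DMSO_d10, and 117 and 236 CPM in TRULI_d10. Its log2 difference of TRULI_d10 from DMSO_d5 was -2.13 (SE 0.38, adjusted p = 0.0107). That of mt-Co3, a core subunit of complex IV, was 1.12 (SE 0.31, adjusted p = 0.0353). The labels state poly(A) selection, and the share of mitochondrial RNA was lower in both TRULI_d10 libraries than in DMSO_d5. Assembly factors outside the member rule had 1 of 29 higher and 0 lower, the higher one being Coa5 of complex IV assembly. For the 17 genes of electron carriers and the tricarboxylic acid cycle, 6 were lower and 2 higher, with a median of -0.74.

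Those cycle enzymes were split in direction, as were the chain subunits and the genes as a whole. Fumarase, Fh1, measured 65.9, 63.5 and 46.4 CPM in DMSO_d5, 13.1, 8.62 and 44.6 CPM in TRULI_d5, 43.0 and 35.2 CPM in DMSO_d10, and 9.91 and 15.9 CPM in TRULI_d10. Its log2 difference of TRULI_d10 from DMSO_d5 was -2.19 (SE 0.39, adjusted p = 0.0107), and that of the isocitrate dehydrogenase subunit Idh3g -1.9 (SE 0.28, adjusted p = 0.00673). Malate dehydrogenase, Mdh2, measured 123, 201 and 201 CPM in DMSO_d5, 580, 621 and 173 CPM in TRULI_d5, 184 and 276 CPM in DMSO_d10, and 673 and 918 CPM in TRULI_d10. Between TRULI_d10 and DMSO_d5 it differed by 2.18 (SE 0.31, adjusted p = 0.00595), and citrate synthase, Cs, by 0.94 (SE 0.26, adjusted p = 0.0343). Of 13 regulators of mitochondrial biogenesis tested, 2 rose and 2 fell, 30.8% called beside 20.3% of all genes. Ppargc1b, a coactivator of such genes, measured 2.4, 2.3 and 4.96 CPM in DMSO_d5, 5.95, 4.31 and 3.41 CPM in TRULI_d5, 2.48 and 1.34 CPM in DMSO_d10, and 69.3 and 21 CPM in TRULI_d10, so that the TRULI_d10 libraries stood alone (log2 difference 3.76, SE 0.62, adjusted p = 0.00867). The other regulators called were Twnk, higher by 1.82, and Tfb1m and Polg, at -2.99 and -1.57. Of 17 glycolysis genes 0 were called by edgeR in this comparison, beside 20.3% of all genes. At an unadjusted p under 0.05, 2 were higher, beside 36.7% of all genes in either direction. Their median log2 difference was -0.19. Of 7 supporting-cell markers 4 fell, beside 8.8% of all genes, with a median log2 difference of -0.89.

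Promoter motifs were counted for the members called in TRULI_d10 against DMSO_d5. Among the 5 members with a window that rose, 0 held the NRF1-type motif, 2 held CCGGAAG (Ndufaf1 and Ndufs3) and 1 held the YY1 motif (Ndufa9). Of the 11 that fell and had a window, Atp5c1 and Uqcrc1 held the NRF1-type motif, Atp5j, Ndufs8 and Uqcrh held CCGGAAG, and Atp5j held the YY1 motif. A match is a run of letters in the window and says nothing about binding in these cells.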

How the data were processed

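Alignment by the authors was to GRCm38 with STAR. Their deposited values are an expected count per gene and library, without normalization, and an effective length in bases. The counting program is not given in the sources used here. The labels name an Illumina TruSeq kit with poly(A) selection, whereas a QIAseq FX Single Cell RNA kit is given in the methods. Strand use in counting is not stated, so reads of overlapping or antisense genes may be shared. Identical libraries were looked for: the lowest chi-square per degree of freedom between 2 libraries was 16.7.

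Expected counts were rounded, and 48349 of 48709 genes matched GENCODE M21, 21695 of them protein-coding. Comparisons used edgeR 4.0.16 in R 4.3.3: filterByExpr (minimum count 10, minimum total 15), TMM scaling and the quasi-likelihood test on the 2 groups compared, with Benjamini-Hochberg adjustment over all genes tested and a threshold of 0.05. CPM used TMM factors over the 10 libraries, and FPKM was computed from expected count, effective length and protein-coding total. The 3-count floor covers counting error only. A group called not overlapping had all its CPM values above, or below, those of the other group.

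Groups came from the sample labels, and the deposited names were an alternative, because 4 of 10 libraries differ. Other alternatives were DESeq2 1.42.0, its type of size factor, no count filter, all 10 libraries in one fit, protein-coding genes alone, mitochondrial RNA removed, the replicate number as a block, a log2 fold limit of 1, an unadjusted p, and leaving out each library (limma 3.58.1 is loaded by edgeR). The unadjusted p and the fit of all 10 libraries by deposited name were added after seeing the data. The scripts were tested on simulated data. Numbers were taken to pair libraries by the correlation of same-numbered libraries' deviations from their group means: 0.353, 0.164 and 0.291 for the deposited names at 5 days, all above 0.1, and -0.141, 0.053 and -0.182 for the labels. At 10 days the value was 0.161 by deposited name and 0.189 by label, and with 2 libraries per group the other pairs differ only in sign. The deposited numbers were treated as pairing on the values at 5 days. Correlations were taken within a day only, so pairing of d10 with d5 libraries was not checked.

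The members and the other gene lists were chosen with earlier results of these data known. Genes named with values were core subunits (1 is not reported here), all isoform sets, the 5 called members with the largest difference in each comparison and grouping, and in each complex the member with the highest mean FPKM and the widest range. Other genes called or lying apart, and list genes outside the members, were named after their values were seen.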

Additional observations from a re-analysis of the deposited data

How the results depend on the processing

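Counts of members called depended on the grouping and on single libraries. They stand here without the share of all genes called in the same fits, so they are no result about the members. For TRULI_d5 against DMSO_d5 (0 by label) they were 3 with DESeq2, 7 without a count filter, 17 at an unadjusted p and 0 to 20 with a library left out; by deposited name they were 2 with DESeq2, 2 with the replicate block, 7 unadjusted and 0 to 1 with a library left out. For TRULI_d10 against DMSO_d10 (0) they were 8 with DESeq2, 11 without a filter, 7 with the replicate block, 22 unadjusted and 0 to 20 with a library left out, and 6 unadjusted by deposited name. For DMSO_d10 against DMSO_d5 (0 by label) they were 2 without a filter, 1 with the replicate block, 8 unadjusted and 0 to 1 with a library left out; by deposited name they were 20, or 26 with DESeq2, 13 with the replicate block, 20 without mitochondrial RNA, 20 under a log2 limit of 1, 36 unadjusted, 23 with all libraries in one fit and 0 to 30 with a library left out (9 without DMSO_d5 replicate 3, 19 without DMSO_d10 replicate 2). For TRULI_d10 against TRULI_d5 (0 by label, 3 unadjusted) they were 11 by deposited name, or 20, 4, 11, 10, 30 and 15 under those settings in the same order, and 0 to 21 with a library left out (12 without TRULI_d10 replicate 2). For TRULI_d10 against DMSO_d5 (21) they were 0 with all labelled libraries in one fit, 41 unadjusted and 1 to 30 with a library left out. The interaction gave 1 unadjusted by label, 6 by deposited name and 0 to 1 with a library left out. The cause of these differences was not tested; leaving out a library also leaves fewer libraries. Depth limits members near the 3-count floor, such as Ndufa1. DESeq2's size factors and protein-coding genes alone changed no count of members by over 1.5 times.

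Single genes changed sign where they were not called by label. Ndufaf1 in TRULI_d10 against TRULI_d5 was -0.98 by label, -1.49 to 1.19 with a library left out (1.19 without the one labelled TRULI_d5 replicate 2), and by deposited name 1.73, 1.75 with DESeq2, 1.53 with the replicate block, 1.71 without mitochondrial RNA, 1.7 with all libraries in one fit and 1.53 to 1.87 with a library left out (1.78 and 1.53 without TRULI_d5 replicates 1 and 3, 1.85 and 1.57 without TRULI_d10 replicates 1 and 2). In DMSO_d10 against DMSO_d5, Ndufaf1 went from 0.2 (log2) to -0.24 without DMSO_d10 replicate 1 and 0.53 without replicate 2, and Ndufb11 from 0.07 to -0.05 without DMSO_d5 replicate 1, 0.58 without DMSO_d10 replicate 1 and -0.70 without replicate 2. By deposited name the replicate block, which leaves out replicate 3 where a group has 2 libraries, ended 7 calls of members in DMSO_d10 against DMSO_d5 and 7 in TRULI_d10 against TRULI_d5, and no member called with or without it changed sign. With 2 libraries in a group, leaving one out assumes that the lone library varies like the others.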
